A study of Mus musculus with 90 samples.

Results

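The 10 genes described here, Myh4, Myh1, Myh2, Mylpf, Tnnt3, Tnni2, Tnnc2, Actn3, Atp2a1 and Pvalb, encode proteins of fast skeletal muscle fibres. They were chosen by name, through their Entrez Gene identifiers, and all 10 were found among the 20414 genes of the expression table. The study sequenced RNA from 15 tissues of female C57BL/6 mice, aged 10 weeks in the sample labels (the methods of the study give another age), in estrus, the phase of ovulation, or in diestrus, the quiescent phase that precedes the next cycle. The phase of each mouse was read from stained vaginal cells, and each tissue has 3 libraries per phase, 90 in all. The mice carried no transgene and received no treatment according to the labels, and the labels do not say which muscle was dissected. Expression is given as FPKM, a count of sequenced fragments scaled to the length of the transcript and the size of the library, and thus a level per length.

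Skeletal muscle is a mosaic of slow fibres, which resist fatigue, and of fast fibres, which contract quickly and tire sooner. A fibre is typed by the myosin heavy chain it carries: Myh7 marks slow type I fibres, Myh2 type IIa, Myh1 type IIx and Myh4 type IIb, the fastest. In fast fibres the heavy chain works with the fast light chain Mylpf and with the fast troponins Tnnt3, Tnni2 and Tnnc2, which make the thin filament sensitive to calcium. Actn3 anchors thin filaments at the Z-disc, the calcium pump Atp2a1 returns calcium to the sarcoplasmic reticulum, and Pvalb binds calcium in the cytoplasm and so speeds relaxation.

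The 3 fast heavy chain genes lie next to each other on chromosome 11 and are close copies, so the bases before their annotated starts are shown for comparison. Each line holds 250 bases 5′ to 3′ on the plus strand, from the RefSeq annotation of GRCm38.p6, at chr11:67237562-67237811 for Myh4, chr11:67199852-67200101 for Myh1 and chr11:67170777-67171026 for Myh2, and the capitals mark the longest run that all 3 share.
Myh4: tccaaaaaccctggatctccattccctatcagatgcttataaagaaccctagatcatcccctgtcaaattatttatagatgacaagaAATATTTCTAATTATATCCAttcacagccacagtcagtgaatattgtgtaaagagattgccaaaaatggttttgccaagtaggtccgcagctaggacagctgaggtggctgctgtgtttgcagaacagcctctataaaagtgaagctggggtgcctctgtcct
Myh1: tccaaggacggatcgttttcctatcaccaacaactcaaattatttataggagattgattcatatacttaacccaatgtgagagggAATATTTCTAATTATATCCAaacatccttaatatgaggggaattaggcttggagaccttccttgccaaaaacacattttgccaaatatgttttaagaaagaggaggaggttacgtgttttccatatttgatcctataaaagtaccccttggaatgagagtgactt
Myh2: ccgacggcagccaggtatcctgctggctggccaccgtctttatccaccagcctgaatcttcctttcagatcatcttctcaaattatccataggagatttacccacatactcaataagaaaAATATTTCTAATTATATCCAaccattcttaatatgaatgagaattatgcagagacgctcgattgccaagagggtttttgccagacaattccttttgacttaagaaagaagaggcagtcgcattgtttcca
The shared run is 20 bases long and starts at position -163 in Myh4, -165 in Myh1 and -130 in Myh2, counted from the annotated start. Of 32851 promoter windows of this length, 3 hold it on either strand (0.00913%), namely those of the 3 heavy chain genes. The motif TATAAA, searched on both strands, starts at position -31 in Myh4 and at position -32 in Myh1, has further matches upstream at -213 and -179 in Myh4 and at -208 in Myh1 and none in the window of Myh2, and is found in 12.4% of all windows. A match to the consensus of MEF2, a family of muscle transcription factors, lies at positions -182 to -173 in Myh4 and -211 to -202 in Myh1, against 2.92% of all windows with a match, and overlaps the TATAAA match at -179 or -208, on the other strand. Of the other windows of members, 1 of the 2 of Pvalb also holds a MEF2 match. The table had a window for 7 of the 10 members and none for Tnnt3, Tnni2 and Actn3. The E-box CANNTG, the site of myogenic bHLH factors such as MyoD, is in the windows of Myh4, Mylpf, Tnnc2, Atp2a1 and Pvalb and in 66.2% of all windows. These matches describe letters and say nothing of binding.

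The likeness of the 3 heavy chains also bears on their values. Of the stretches of 50 bases in the longest coding transcript, 13.3% for Myh4, 22.9% for Myh1 and 22.3% for Myh2 occur unchanged in another of the 3 genes, and of stretches of 100 bases 2.55%, 8.93% and 7.89%. Reads from such stretches were shared out by the estimation of abundance, so the split between Myh1, Myh2 and Myh4 is less certain than their sum.

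The libraries labelled skeletal muscle hold the marker genes of that tissue: Acta1, the skeletal actin, was at 24253 to 29259 FPKM and Ckm, the muscle creatine kinase, at 12221 to 16080 FPKM in all 6, whereas of 9 heart muscle genes Myl7 was listed at 0 in all 6 and Myh6, Tnni3, Nppa, Nppb and Mybpc3 stayed at or under 0.87 FPKM. Of the other heart genes Tnnt2 reached 4.0 FPKM, Myl4 6.55 FPKM, and Actc1, the cardiac actin, 490 to 1515 FPKM. The 10 fast fibre genes made up between 15.3% and 20.4% of the summed FPKM of a skeletal muscle library. The depth, approximated from the steps between low values, came to 13.9M to 16.1M reads in these libraries and to 8.79M to 19.2M in all libraries but BAT estrus replicate 3, which came to 0.0751M.

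In skeletal muscle, the fastest heavy chain was higher in estrus and the slower fast chains were lower, but no member passed the limits for a differentially expressed gene (DEG). Myh4 had 7408, 8756 and 10269 FPKM in estrus and 5279, 6352 and 6022 FPKM in diestrus. Every estrus library thus lay above every diestrus library for Myh4, and the log2 fold change of estrus over diestrus was 0.57 (SE 0.14, unadjusted p = 0.00503, adjusted p = 0.108, limma). Myh1 had 1239, 732 and 518 FPKM in estrus and 927, 1384 and 1536 FPKM in diestrus. For Myh1 the phases overlapped, since estrus replicate 1 was higher than diestrus replicate 1 (log2 fold change -0.69, SE 0.33, adjusted p = 0.284, limma). Myh2 had 537, 94.5 and 155 FPKM in estrus and 841, 490 and 537 FPKM in diestrus. Again estrus replicate 1 lay within the diestrus range while the other two estrus libraries lay far below it (log2 fold change -1.60, SE 0.59, unadjusted p = 0.0289, adjusted p = 0.186, limma). These are levels in bulk tissue, where fewer fibres of a type and less RNA per fibre cannot be told apart.

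**Figure D1:**
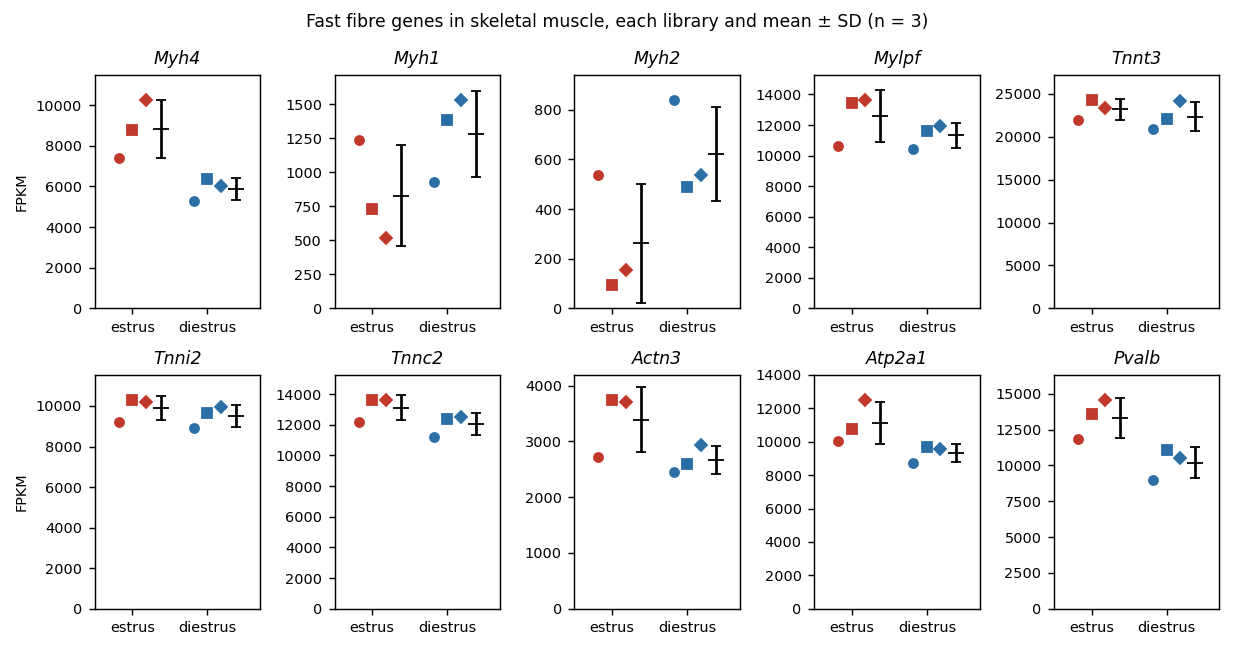
FPKM (vertical axes, from 0) of the 10 fast fibre genes in the 6 skeletal muscle libraries, by phase, with circles for replicate 1, squares for replicate 2 and diamonds for replicate 3, and the mean ± SD of 3 libraries in black. For Myh4, Atp2a1 and Pvalb all estrus libraries lie above all diestrus libraries, and for Myh1 and Myh2 the estrus libraries of replicates 2 and 3 lie below all diestrus libraries.

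The calcium-handling members followed Myh4. Pvalb had 11816, 13584 and 14575 FPKM in estrus and 8971, 11081 and 10508 FPKM in diestrus, without overlap (log2 fold change 0.39, SE 0.13, unadjusted p = 0.0206, adjusted p = 0.162, limma). Atp2a1 had 10058, 10763 and 12502 FPKM in estrus and 8702, 9682 and 9585 FPKM in diestrus, also without overlap (log2 fold change 0.25, SE 0.12, adjusted p = 0.284, limma). Actn3 had 2724, 3744 and 3702 FPKM in estrus and 2446, 2603 and 2942 FPKM in diestrus. Its phases overlapped only through estrus replicate 1, the lowest estrus library of Actn3 (log2 fold change 0.34, SE 0.15, adjusted p = 0.248, limma).

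The regulatory light chain and the troponins were nearly level between the phases. Tnnt3, with the highest level of the 10 genes, had 21878 to 24302 FPKM in estrus and 20852 to 24129 FPKM in diestrus, and a log2 fold change of 0.06 (SE 0.12). For Mylpf the log2 fold change was 0.14 (SE 0.13), for Tnni2 0.06 (SE 0.10) and for Tnnc2 0.12 (SE 0.11), with the phases overlapping for each. On quantile-normalized values Mylpf, Tnni2 and Tnnc2 had log2 fold changes below 0, of -0.06, -0.17 and -0.10, so no direction is given for them.

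Of the 10 members, 0 were called in skeletal muscle by limma, where a call needed a log2 fold change of 1 or more in size with an adjusted p no higher than 0.05, beside 0.00936% of the 10680 genes tested. At an unadjusted p under 0.05, 2 members (Myh4 and Pvalb) were higher in estrus, where 2.85% of all genes tested were, and 1 (Myh2) was lower, where 18% of all genes were. The phases did not overlap for 3 members, all higher in estrus, beside 4.27% of all genes tested in that direction and 21.9% in the other. The median log2 fold change of the members was 0.13, against -0.0821 for all genes tested. Estrus replicate 1 decided this count: without it 2 members (Myh1 and Myh2) were called and 7 had an unadjusted p under 0.05, in a fit that called 0.817% of all genes and had 3.71% higher and 25.4% lower at that p, with a log2 fold change of -2.31 for Myh2 (adjusted p = 0.0125, limma) and 0.69 for Myh4 (adjusted p = 0.02, limma), under the limit on the fold. Without any other single library, 0 members were called, and without estrus replicate 2 or 3 the count at an unadjusted p under 0.05 was 1.

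The other genes of the fibre program were counted from lists chosen by function, but with earlier results of these data known. The counts of the fast and slow lists are thus a description and no independent support. Of 16 other fast fibre genes, all 16 had a log2 fold change above 0 in skeletal muscle, beside 29.6% of the 10680 genes tested. Their values ran from 0.02 to 0.45 with a median of 0.22. At an unadjusted p under 0.05, 6 were higher, beside 2.85% of all genes, but 0 were called by limma. Quantile normalization turned the direction of the members Mylpf, Tnni2 and Tnnc2, whose log2 fold changes were 0.06 to 0.14 before it. The directions of this list under it are not given. Values of this size in the list are therefore not read as a rise, and the 16 genes were measured in the same 6 libraries. The most abundant of them was the fast light chain Myl1, at 12562 to 15730 FPKM in estrus and 11159 to 13045 FPKM in diestrus, followed by the glycolytic enzyme Eno3 and the glycogen phosphorylase Pygm, with log2 fold changes of 0.24, 0.02 and 0.19. Of 12 genes used by both fibre types, 4 had an unadjusted p under 0.05 with a higher level in estrus and 2 with a lower level, beside 2.85% and 18% of all genes. Acta1 and Ckm, the most abundant of these, had log2 fold changes of 0.11 and 0.20. Myoglobin (Mb), which stores oxygen in slow and oxidative fibres, was at 999 to 3289 FPKM in estrus and at 4288 to 5628 FPKM in diestrus, without overlap (log2 fold change -1.42, SE 0.39, adjusted p = 0.119, limma).

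Slow fibre genes varied far more between the libraries than the fast members did. Myh7, the slow heavy chain, had 69.4, 0.59 and 0.19 FPKM in estrus and 247, 73.7 and 55.7 FPKM in diestrus. Estrus replicates 2 and 3 thus held almost no Myh7, while estrus replicate 1 lay within the diestrus range, as it did for Myh2. All 10 slow fibre genes had a log2 fold change below 0, with a median of -3.53. All 10 also had an unadjusted p under 0.05, beside 18% of all genes lower at that p. Of these slow genes 0 were called by limma, and for 8 of the 10 the phases overlapped. Their summed level was 81.9, 92.8 and 1314 FPKM in the estrus libraries, from lowest to highest, and 1321, 1385 and 4227 FPKM in diestrus. Without estrus replicate 1, all 10 were called, beside 0.798% of all genes called lower in that fit. Myl3, the slow light chain, was the most abundant, with 259, 20.6 and 8.81 FPKM in estrus against 977, 304 and 350 FPKM in diestrus. Next came the light chain Myl2 and the slow tropomyosin Tpm3, with log2 fold changes of -3.43 and -2.67. Genes of other cells varied too. The 5 erythroid genes summed to 126.5 to 598.7 FPKM in estrus and to 288.6 to 3289 FPKM in diestrus. The 5 genes of peripheral nerve summed to 34.4 to 66.8 and 62.6 to 85.6 FPKM, and both sums overlapped between the phases. Of the genes tested, 5 of 5 erythroid, 3 of 4 nerve, 6 of 7 smooth muscle and 3 of 6 adipocyte genes were lower in estrus. Of all genes tested, 29.6% were higher. The part of these cells, and of the share of slow fibres in the dissected piece, in the differences of the fast members was not tested.

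**Figure D2:**
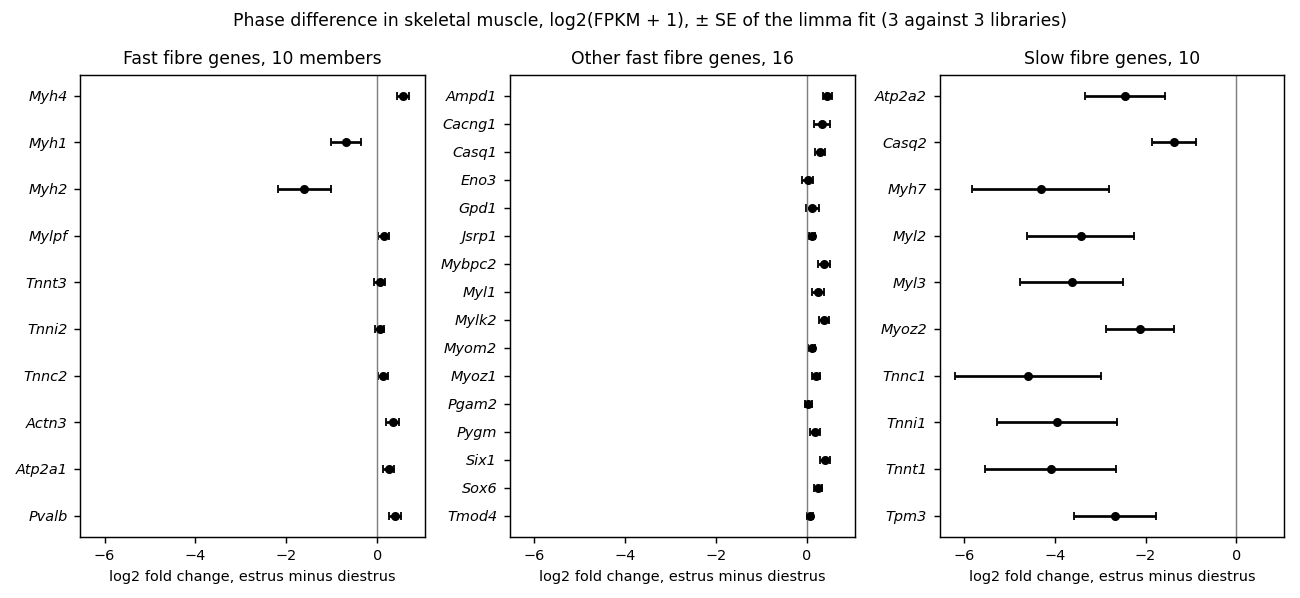
Log2 fold change of estrus over diestrus in skeletal muscle (horizontal axes, log2(FPKM + 1), with the standard error of the limma fit, 3 against 3 libraries) for the 10 members, 16 other fast fibre genes and 10 slow fibre genes. Members other than Myh1 and Myh2 and the other fast genes lie between 0.02 and 0.57, Myh1 and Myh2 at -0.69 and -1.60, and the slow genes between -4.59 and -1.37.

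Shares of the heavy chains do not depend on how a library was scaled. Of the summed FPKM of Myh4, Myh1, Myh2 and Myh7 in skeletal muscle, Myh4 took 80.1%, 91.4% and 93.9% in the estrus libraries and 72.4%, 76.5% and 73.9% in the diestrus libraries. The shares of Myh4 did not overlap, with means of 88.4% ± 7.36 (SD, n = 3) and 74.3% ± 2.11 (SD, n = 3) and an exact permutation p of 0.1, two-sided, the smallest that 3 against 3 libraries allow. The share of Myh2 was 5.8%, 0.986% and 1.41% in estrus and 11.5%, 5.9% and 6.59% in diestrus, also without overlap (exact permutation p = 0.1). Myh1 took 13.4%, 7.64% and 4.73% in estrus and 12.7%, 16.7% and 18.8% in diestrus, with overlapping phases (exact permutation p = 0.2). For the 3 shares the p-values adjusted over the family were not computed, since none could pass at this size.

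**Figure D3:**
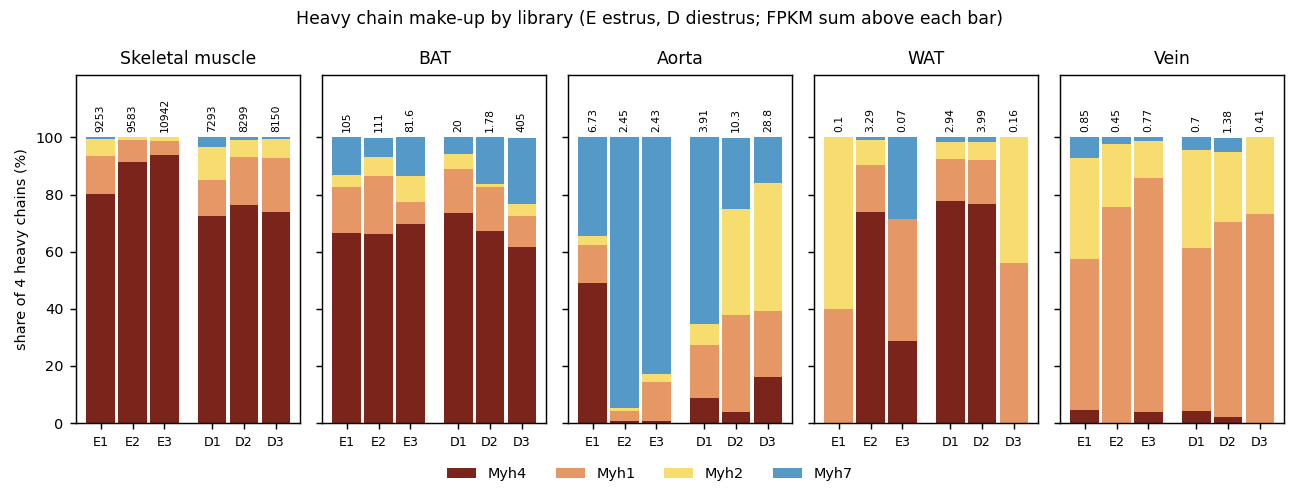
Share of Myh4, Myh1, Myh2 and Myh7 in their summed FPKM (vertical axis, percent), 1 bar per library for skeletal muscle, BAT, aorta, WAT and vein, with the summed FPKM printed above each bar. Myh4 fills most of each bar in skeletal muscle and BAT, Myh7, Myh1 and Myh2 together fill about as much as Myh4 (49.0%) of the aorta bar of estrus replicate 1 and more of the other aorta bars, and the bars of vein and of 3 WAT libraries stand on sums of at most 1.38 FPKM.

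Across the 15 tissues, each of the 10 members was highest in skeletal muscle, and the ranges of skeletal muscle and of the next tissue did not overlap for any of them. The mean in skeletal muscle was 44.8 times that of the next tissue for Tnnc2 and up to 103.4 times for Actn3, and the next tissue was BAT for all 10. All 140 comparisons of skeletal muscle with another tissue passed an exact permutation test of 6 against 6 libraries (two-sided, p = 0.00216 in each, the smallest possible, adjusted p = 0.00216). The members were chosen as genes of skeletal muscle fibres, so these passes follow from that choice and are no independent finding. The differences in mean log2(FPKM + 1) ran from 6.13 to 14.42. Below skeletal muscle, the order was loose: the ranges overlapped for 126 of the 130 pairs of neighbouring tissues.

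BAT, brown adipose tissue, held all 10 members at levels that differed widely between libraries. Myh4 had 69.8, 73.8 and 56.9 FPKM in estrus and 14.7, 1.2 and 250 FPKM in diestrus, so that the lowest and the highest BAT library were both from diestrus. As a percent of the skeletal muscle mean, the median over the members was 1.49%, 1.67% and 0.966% in the estrus libraries and 0.307%, 0.0306% and 5.1% in the diestrus libraries. The members moved together: Tnnt3, the most abundant, was at 7.72 FPKM in diestrus replicate 2 and at 1353 FPKM in diestrus replicate 3, and Pvalb at 5.87 and 640 FPKM. Over the 6 libraries Tnnc2 ran from 4.15 to 901 FPKM, Tnni2 from 5.37 to 754, Mylpf from 5.36 to 626, Atp2a1 from 2.89 to 507, Actn3 from 0.54 to 90.9, Myh1 from 0.27 to 43.5 and Myh2 from 0.02 to 17.97 FPKM, each lowest in diestrus replicate 2 and highest in diestrus replicate 3. Acta1, the skeletal actin, ran in the same order, from 9.77 FPKM in diestrus replicate 2 to 2159 FPKM in diestrus replicate 3. Markers of heart muscle were near 0 in BAT, with Myh6 at no more than 0.43 FPKM.

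With this spread, phases could not be separated in BAT. Of the 10 members, 0 were called by limma, beside 0% of the 11104 genes tested, and 0 had an unadjusted p under 0.05, beside 5.39% of genes higher and 7.45% lower in estrus, and no direction can be given. All 10 had a log2 fold change above 0, from 0.95 for Mylpf to 1.97 for Tnnc2, but for 9 of the 10 the mean FPKM was lower in estrus, as with Tnnc2 at 242.5 against 318.5 FPKM. Diestrus replicate 3 decided the unadjusted count: without it all 10 members had an unadjusted p under 0.05, beside 2.86% of all genes higher and 3.95% lower in that fit, yet 0 were called, with an adjusted p of 0.587 for Myh4 (limma) at a log2 fold change of 3.52. Without diestrus replicate 2, the log2 fold change of Myh4 was 0.11, and those of Mylpf and Tnni2 turned to -0.58 and -0.18. The shallow library, estrus replicate 3, mattered less for Myh4, whose log2 fold change was 1.72 with it and 1.83 without it.

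The heavy chains of BAT were split much as in skeletal muscle, with more of the slow chain. Myh4 took 67.5% ± 3.91 (SD, n = 6) of the 4 heavy chains in BAT and 81.3% ± 9.14 (SD, n = 6) in skeletal muscle (difference -13.9 percentage points, exact permutation p = 0.00433, two-sided, adjusted p = 0.013 over 6 tests). Myh7 took 5.8% to 23.1% in BAT, against at most 3.38% in skeletal muscle. Among the 3 fast chains alone, Myh4 took 71.1% to 80.7% in BAT, a difference of -4.24 points from skeletal muscle that did not pass (exact permutation p = 0.307). The shares of Myh1 and Myh2 were not separated from those of skeletal muscle (exact permutation p = 0.509 and p = 0.913). The shallow library, estrus replicate 3 at about 0.0751M reads, is counted as a full replicate in these BAT shares. It had the lowest share of Myh1 (7.61%) and the highest of Myh2 (9.1%) in BAT, so these 2 values are uncertain.

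In aorta the members were lower and the heavy chains were of another kind. Before the values, it must be said that aorta estrus replicate 1 stood apart in its markers: its adipocyte genes summed to 3299 FPKM against 20181 to 22738 FPKM in the other 5 libraries, its smooth muscle genes to 16492 against 1836 to 2704 FPKM, and its cardiomyocyte genes to 415 against 3012 to 6059 FPKM. The median over the members, as a percent of skeletal muscle, was 0.0458%, 0.00658% and 0.015% in estrus and 0.0299%, 0.106% and 0.398% in diestrus. Tnnt3 had 10.3, 1.00 and 3.46 FPKM in estrus and 6.88, 28.8 and 100 FPKM in diestrus, and the other members peaked in diestrus replicate 3 as well. There Tnnc2 was at 71.4 FPKM, Tnni2 at 51.0, Mylpf at 42.3, Atp2a1 at 22.7, Pvalb at 9.67 and Actn3 at 1.85 FPKM, whereas in estrus replicate 2, the lowest library for most members, none of these was over 1.02 FPKM. Of the 9 members tested, 0 were called by limma, beside 0% of the 12553 genes tested, and 5 were lower in estrus at an unadjusted p under 0.05, against 2.53% of all genes in that direction and 0.574% in the other. Myh2, with 0.20, 0.03 and 0.07 FPKM in estrus and 0.29, 3.8 and 12.98 FPKM in diestrus, was the only member without overlap, beside 9.54% of all genes in that direction. No member had an adjusted p under 0.933 (limma), and without diestrus replicate 3, without diestrus replicate 2, or without estrus replicate 2 or 3, the count at an unadjusted p under 0.05 fell to 0. Without estrus replicate 1 it was 7, beside 8.64% of all genes lower in that fit, and without diestrus replicate 1 also 7, beside 1.14%.

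Where Myh4 led in skeletal muscle, it trailed in most aorta libraries. In aorta diestrus replicate 3, Myh2 was at 12.98 FPKM, Myh1 at 6.56 FPKM and Myh4 at 4.68 FPKM, and in diestrus replicate 2 at 3.8, 3.48 and 0.40 FPKM. Myh4 took 13.3% ± 18.5 (SD, n = 6) of the 4 heavy chains in aorta, a difference of -68.0 percentage points from skeletal muscle without overlap of the ranges (exact permutation p = 0.00216, two-sided, adjusted p = 0.013). Estrus replicate 1 was the exception, with 49.0% Myh4. Much of the rest was Myh7, at 2.01 to 4.53 FPKM in all 6 aorta libraries, beside cardiac genes such as Myh6 at 37.3 to 717 FPKM. On the 4 chains, the shares of Myh1 and Myh2 in aorta were not separated from those of skeletal muscle (exact permutation p = 0.303 and p = 0.355, adjusted p = 0.532 for each). Among the 3 fast chains alone, Myh4 took 4.76% to 75.0%, Myh1 20.5% to 78.6% and Myh2 4.55% to 53.6% in aorta. The 75.0% was that of estrus replicate 1, within the 74.4% to 93.9% of skeletal muscle. These shares stand on sums as low as 0.13 FPKM in estrus replicate 2 and 0.42 FPKM in estrus replicate 3. Their comparison with skeletal muscle is given among the alternatives in the closing section. The tissues came from the same mice, which the tests of shares and levels leave aside.

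WAT, white adipose tissue, fell into libraries with higher and with lower levels of most members, and this did not follow the phase. Myh4 had 0.00, 2.43 and 0.02 FPKM in estrus and 2.29, 3.06 and 0.00 FPKM in diestrus. In estrus replicate 2 and diestrus replicates 1 and 2, the median of the members was 0.0336%, 0.0327% and 0.0462% of skeletal muscle, and Myh4 took 73.9%, 77.9% and 76.7% of the heavy chains. In these libraries Tnnt3 was at 6.32 to 9.65 FPKM, Tnnc2 at 4.3 to 7.18, Mylpf at 4.79 to 5.7, Tnni2 at 3.27 to 5.51, Pvalb at 3.05 to 5.26 and Atp2a1 at 3.2 to 3.89 FPKM. Actn3 did not follow this split, since its highest WAT value, 1.5 FPKM, was in estrus replicate 1. In the other 3 WAT libraries the median was 0.00264% to 0.00436% and the 4 heavy chains summed to at most 0.16 FPKM. Of the 7 members tested in WAT, 0 were called by limma, beside 0% of the 11952 genes tested, and 0 had an unadjusted p under 0.05, beside 4.83% of genes higher and 1.15% lower in estrus. Without diestrus replicate 3, 2 members had one, beside 2.65% of genes higher and 0.65% lower.

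By the median over libraries, vein had the lowest trace of the 4 tissues, 0.00588% against 0.0185% in WAT. The lowest single library was from WAT, at 0.00264%. The heavy chain values of vein were close to 0 FPKM and mostly of Myh1 and Myh2. Myh1 had 0.45, 0.34 and 0.63 FPKM in estrus and 0.40, 0.94 and 0.30 FPKM in diestrus, while Myh4 was at no more than 0.04 FPKM in any of the 6 libraries. Myh1 took 52.9% to 81.8% of the 4 heavy chains and Myh2 took 22.2% to 35.3% in 5 libraries and less in estrus replicate 3, on sums of 0.41 to 1.38 FPKM. The shares were tested only where the 4 heavy chains summed to 1 FPKM or more in each library, so those of vein were not. The median over the members was 0.00314% to 0.00841% of skeletal muscle. In vein Tnnt3 was at 0.40 to 1.81 FPKM, Tnnc2 at 0.30 to 1.46, Actn3 at 0.22 to 1.06, Tnni2 at 0.04 to 0.75, Atp2a1 at 0.18 to 0.35 and Pvalb at 0 to 0.18 FPKM. Only Mylpf reached a mean of 1 FPKM, with 1.32, 1.42 and 2.49 FPKM in estrus and 0.86, 1.06 and 1.15 FPKM in diestrus. Its phases did not overlap, beside 5.28% of the 13239 genes tested in that direction, and it was not called (log2 fold change 0.42, SE 0.20, adjusted p = 0.424, limma), where 0% of the genes were, while 3.43% were higher and 8.63% lower at an unadjusted p under 0.05.

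**Figure D4:**
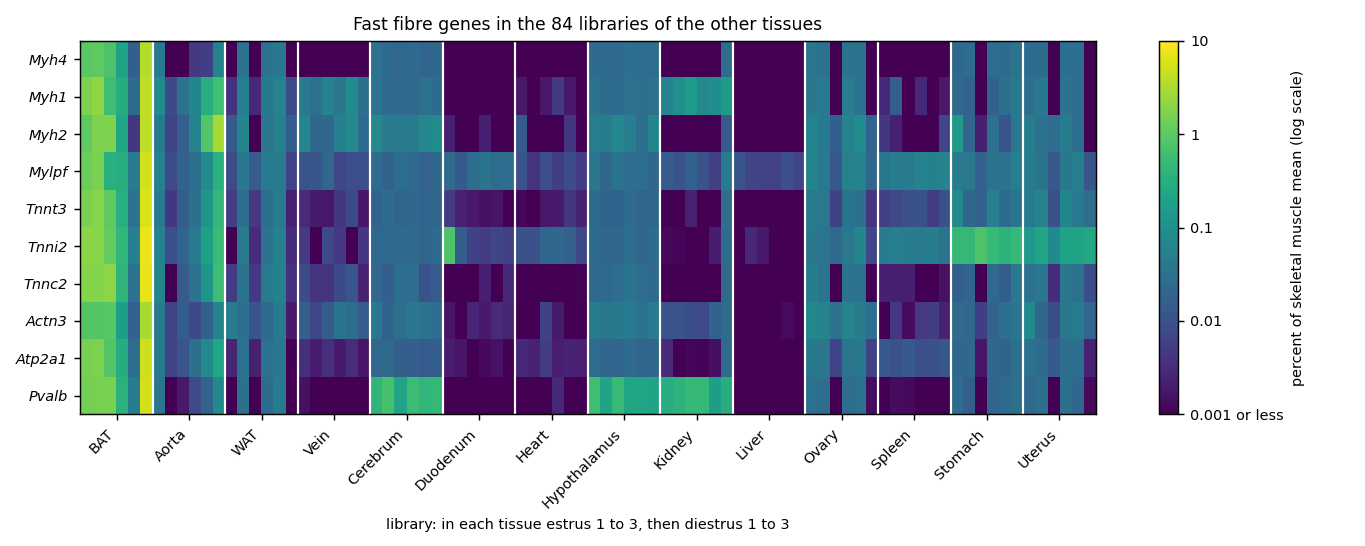
Level of each member (rows) as a percent of its mean in skeletal muscle, on a log colour scale from 0.001% or less to 10%, in the 84 libraries of the other 14 tissues (columns, estrus replicates 1 to 3 and then diestrus replicates 1 to 3 within each tissue). BAT is brightest, with library medians of 0.0306% to 5.1%. Dark columns beside lighter ones in WAT, ovary, stomach, uterus and kidney are libraries of the same tissue with most members lower or higher. Single members stay visible in dark columns, such as Tnni2 in stomach estrus replicate 3 (0.754%) and Pvalb and Myh1 in kidney.

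The same split between libraries was seen outside the fat and vessel tissues, a pattern chosen for description after its values were seen. Leaving out skeletal muscle, BAT and aorta, 29 libraries of 7 tissues had Myh4 between 1.47 and 3.06 FPKM, and the other 43 libraries had at most 0.06 FPKM, with none in between. The 29 were all 6 of cerebrum and all 6 of hypothalamus, 5 of stomach, 4 of ovary, 4 of uterus, 3 of WAT and 1 of kidney. In ovary and uterus, replicate 3 of each phase was the low library, with Myh4 at no more than 0.01 FPKM. The median over the members was 0.02% to 0.0477% of skeletal muscle in the 29 libraries when Pvalb is left out. By member, the median over the 29 libraries ran from 0.0249% for Atp2a1, 0.0266% for Tnnt3, 0.0269% for Myh4 and 0.0273% for Tnnc2 through 0.0313% for Myh1, 0.0327% for Pvalb, 0.0343% for Tnni2, 0.0367% for Actn3 and 0.038% for Mylpf to 0.0497% for Myh2. The members thus did not stand in exactly the proportions of skeletal muscle, and single libraries reached 0.483% for Tnni2 and 0.684% for Pvalb. Over the 43 libraries, the median was 0% for Myh4 and at most 0.0113%, that of Mylpf, for any member. The source of this trace was not tested.

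In the 10 tissues other than skeletal muscle and these 4, 0 members were called by limma, with members tested in 9 of the 10 and none in liver, beside 0% of all genes tested in 9 of these tissues and 0.00798% in spleen. In hypothalamus Pvalb had an unadjusted p of 0.0306 (log2 fold change 0.84, adjusted p = 0.337, limma), where 7.63% of genes were higher in estrus at that level. Hypothalamus estrus replicate 2 decided the call, since without it Pvalb was called (log2 fold change 1.27, adjusted p = 0.00294, limma), beside 0.0299% of all genes in that fit. In spleen Mylpf had an unadjusted p of 0.0132 (log2 fold change -0.34, adjusted p = 0.93, limma), where 1.69% were lower.

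Some of the 10 members had levels of their own outside skeletal muscle, BAT, aorta, vein and WAT, above all Pvalb and Tnni2. These levels were all under 1% of the skeletal muscle mean, and the genes are named here after their values were seen. Pvalb, also a marker of fast-spiking inhibitory neurons and of the early distal convoluted tubule of the kidney, had 49.4, 80.4 and 25.9 FPKM in estrus and 66.1, 51.3 and 55.1 FPKM in diestrus in cerebrum. In hypothalamus Pvalb had 69.4, 25.5 and 60.1 FPKM in estrus and 26.9, 26.1 and 25.5 FPKM in diestrus, and in kidney 37.0, 44.6 and 56.9 FPKM in estrus and 54.8, 20.02 and 37.1 FPKM in diestrus. In each of these tissues the phases overlapped, and the levels of cerebrum, kidney and hypothalamus overlapped with each other. Tnni2, the fast inhibitory troponin, had 44.1, 44.8 and 73.1 FPKM in estrus and 46.9, 37.7 and 46.2 FPKM in diestrus in stomach, and 7.55 to 23.4 FPKM in uterus. A single duodenum library, estrus replicate 1, had 77.8 FPKM of Tnni2, where the other 5 had 0.48 to 1.56 FPKM. In kidney Myh1 was at 0.62 to 1.63 FPKM in all 6 libraries, including 5 in which Myh4 was listed at 0. In spleen Mylpf was at 0.0376% to 0.0602% of its skeletal muscle mean, where the median over the members was 0.00173% to 0.00571%.

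**Figure D5:**
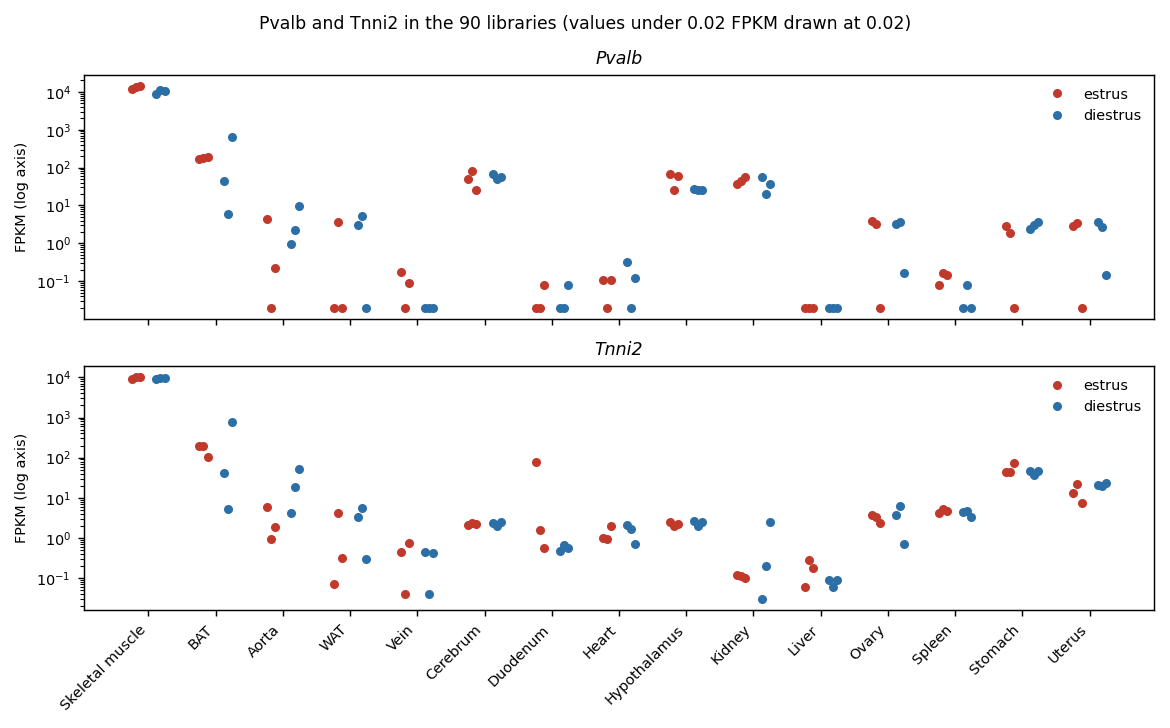
FPKM of Pvalb and Tnni2 (vertical log axes, values under 0.02 FPKM drawn at 0.02) in the 90 libraries, by tissue, red for estrus and blue for diestrus. Pvalb stands at 20.02 to 80.4 FPKM in cerebrum, hypothalamus and kidney, and Tnni2 at 37.7 to 73.1 FPKM in stomach, with 1 duodenum library at 77.8 FPKM.

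Across libraries, a few genes had profiles close to the mean of the 10 members. Over all 90 libraries, the highest Pearson correlations of log2(FPKM + 1) with that mean were 0.984 for Myoz1, a Z-disc protein of fast fibres, 0.964 for Smtnl1, 0.963 for Mybpc1, a myosin-binding protein, and 0.951 for Ppp1r27. They were followed by Neb, the thin filament ruler nebulin, at 0.949, the myogenic factor Myf6 at 0.948, Tbx15 at 0.944, Ampd1 at 0.942, the calcium release channel Ryr1 at 0.94 and Vgll2 at 0.938. Most of this likeness is the contrast of the 6 skeletal muscle libraries with the rest, and libraries of a tissue are not independent points. Over the 84 libraries of the other tissues, Myoz1 (0.931), Smtnl1 (0.862), Mybpc1 (0.825), Myf6 (0.786) and Ppp1r27 (0.765) came highest. Between members, the correlation over these 84 libraries was lowest for Pvalb and Tnni2 (0.359). The genes most like Pvalb there were Vma21 (0.736), Atp6v1e1 (0.733), Macrod2 (0.728), Fam126b (0.689) and Mtor (0.687), of which Vma21 and Atp6v1e1 serve the proton pump of acidic compartments.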

How the data were processed

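RNA of 15 tissues in estrus and diestrus was sequenced, with 3 libraries per group, 90 in all, from 3 mice per phase by the study's account. The authors filtered reads with SOAPnuke, aligned them with Bowtie2 2.2.5 to GRCm38.p5, estimated abundance with RSEM 1.2.8 and deposited FPKM for 20414 genes, without counts. Whether reads were counted by strand is not given in the sources used here. Symbols and promoter windows came from RefSeq of GRCm38.p6. Reads per library were approximated from the steps between low values of short genes. In a library 61.7% to 79.5% of these values came out whole within 0.2 reads, so counts were not recovered and no count test was run.

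Each tissue was tested with limma 3.58.1 in R 4.3.3 (trend, no covariates, Benjamini-Hochberg) on log2(FPKM + 1) where the mean over the tissue's libraries reached 1 FPKM, in place of the DEGSeq of the study, which needs counts. The fits were tested on simulated data with 200 genes changed. At a log2 change of 1.5 they recovered 91% in skeletal muscle, 81% in vein, 79% in WAT, 51% in aorta and 30.5% in BAT. At a log2 change of 3 they recovered 99.5%, 98.5%, 95.5%, 87% and 72.5% in the same order. In aorta and BAT, 0 members called therefore does not show that the phases were alike. A fold change of log2(FPKM + 1) understates that of low genes. Levels and heavy chain shares were compared by exact permutation tests, with scripts in Python 3.11.15 (scipy 1.17.1, pandas 2.3.3, numpy 2.4.6). Named are all members in skeletal muscle and the 4 trace tissues, any member over 1% of its muscle level elsewhere (none was; those named there were chosen after their values were seen), the 3 most abundant genes of a list and the genes most like the members. The members and lists were chosen with earlier results of these data known. Within a tissue, estrus and diestrus libraries were not paired by replicate number. In 0 of 15 tissues did every such pair of the same number correlate over 0.1 (0.045 to 0.185 in skeletal muscle). This check sets 1 phase against the other within a tissue. It says nothing of tissues from the same mouse, whose pairing the main tests of levels and shares leave aside.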

Additional observations from a re-analysis of the deposited data

Results flagged for a closer look

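In 5 of the 33 sets of 6 libraries examined, a single library lay apart from the others by the ratio of its gap to the whole range. Chance alone marks about 1 set in 20 only where values are normally distributed, and these shares and percents were not transformed. The count is therefore not compared with chance. In liver the median was 0 in every library but estrus replicate 1, so any value above 0 would be marked there. In aorta, estrus replicate 1 had the highest share of Myh4 among the heavy chains, 49.0%. By the median percent of the skeletal muscle level, aorta diestrus replicate 3 (0.398%), BAT diestrus replicate 3 (5.1%), kidney diestrus replicate 3 (0.0262%) and liver estrus replicate 1 (0.000132%) were the highest of their tissues.

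For 2 members, all libraries of a phase lay on opposite sides in a pair of tissues. Myh4 had a log2 fold change of 0.57 in skeletal muscle and -0.09 in hypothalamus (unadjusted p = 0.274, limma). Mylpf had 0.42 in vein and -0.34 in spleen. Of all genes tested, 4.27% in skeletal muscle and 5.28% in vein were higher in estrus without overlap. The share of all genes lower without overlap is not given for hypothalamus and spleen, so these pairs are not set against it. The difference between the tissues was not tested. The cause of these patterns was not tested.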

How the results depend on the processing

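With limma, the alternatives were a pseudocount of 0.1, no filter on low values, a scale without the muscle genes, quantile normalization, no trend, each library left out, the replicate number as a block and 1 fit of all libraries. The number of members called stayed at 0 in vein and WAT under all of these. In skeletal muscle it ranged from 0 to 2 when a library was left out, 2 being without estrus replicate 1, and the slow fibre genes called ranged from 0 to 10. In 1 fit of all libraries, 1 member was called in aorta (Myh2), 3 in BAT (Myh1, Actn3 and Atp2a1) and 7 slow fibre genes in skeletal muscle, beside 0.813%, 8.96% and 0.197% of all genes called in these tissues. In the other 10 tissues the number ranged from 0 to 1 with a library left out, 1 being Pvalb in hypothalamus without estrus replicate 2. A replicate block left 0 members called in skeletal muscle, where 5 had an unadjusted p under 0.05, against 3 without the block.

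Log2 fold changes turned for Mylpf (-0.06), Tnni2 (-0.17) and Tnnc2 (-0.10) in skeletal muscle with quantile normalization, and in BAT without diestrus replicate 2 for Mylpf and Tnni2, which ranged from -0.58 to 2.73 and from -0.18 to 3.27 with a library left out. Among shares of the 3 fast heavy chains, aorta differed by 35.2 points for Myh1 and 22.7 for Myh2, past the threshold but on sums down to 0.13 FPKM, Myh4 in BAT no longer passed (-4.24) and Myh2 in BAT turned to 0.403. With libraries paired by phase and number as a block, Myh4 no longer passed in aorta (-68.0, exact permutation p = 0.0312, adjusted p = 0.188) or BAT (-13.9, exact permutation p = 0.0625, adjusted p = 0.188). The smallest p that 6 pairs allow is 0.0312, which adjusts to 0.188 over 6 tests when a single test reaches it, so this loss says nothing about stability. With a library left out, the share of Myh2 in BAT ranged from -1.83 to 0.995 and that of Myh1 from -0.201 to 3.94 points. The cause was not tested. Medians of the trace changed by less than the spread between libraries when Pvalb was left out, an alternative chosen after seeing the data. Depth limits values near 0 FPKM, in particular in BAT estrus replicate 3.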
